A study of Mus musculus with 3 samples.

Results

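Tnf, the NF-kB subunit genes Nfkb1, Nfkb2, Rel, Rela and Relb, and the feedback genes Nfkbia, Nfkbiz, Tnfaip3 and Birc3 were followed across the cell classes and libraries of photoaged mouse skin. They were taken by name, as a family, from the gene list of the deposited matrices, 10 of 32285 genes, with earlier results of these data known. Full-thickness dorsal skin of wild-type C57BL/6J mice labelled female was dissociated. The transcripts of its single cells were tagged in droplets and sequenced from their 3′ ends, with 1 library for each of 3 conditions. The mice are given as 8 weeks old, which the study states for the animals as purchased. Irradiation ran over 12 weeks, so 8 weeks cannot be the age of irradiated mice at collection. CON mice were not irradiated. UV mice received UVA at 0.60 mW/cm2 with UVB at 3.5 mW/cm2 every other day over 12 weeks. CON and UV mice were given vehicle, by the study's account. Rux mice had the same irradiation followed each time by a topical ointment with 1.5% ruxolitinib, an inhibitor of JAK1 and JAK2. Skin was taken 24 h after the last exposure, so the values describe that time point. How many mice entered a library is not given in the sources used here.

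NF-kB is a family of dimeric transcription factors that wait in the cytoplasm, bound by inhibitor proteins of the IkB type. Ligands such as TNF, IL-1 and bacterial products switch on a kinase complex that marks IkB for degradation, and the freed dimers enter the nucleus. Among the genes they switch on are their own brakes, so that transcripts of Nfkbia and Tnfaip3 are widely read as a trace of recent NF-kB activity. In skin, the pathway shapes keratinocyte survival, leukocyte recruitment and the cytokine output of fibroblasts and macrophages.

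After filtering and doublet removal, 10777 CON, 10231 UV and 9299 Rux cells were kept, with 141107589, 117433796 and 115741413 unique molecular identifiers (UMIs, each a tag of 1 captured transcript). Clusters were named from markers, and the suffix "-like" marks such a name. The 8 classes with at least 100 cells in every library were fibroblast (FB), epithelial (EPI, keratinocytes, hair follicle and sebaceous cells together), vascular endothelial (VEC), lymphatic endothelial (LEC), pericyte (PCY), Schwann (SCH), myeloid (MYE) and lymphocyte (LYM) cells. Cells of clusters left without a class were 15.5%, 12.6% and 8.81% of CON, UV and Rux. Among them was a cluster led by the hair keratin gene Krt35, which is thus not in EPI. UMIs were summed over the cells of a class and divided by all UMIs of the class, scaled to 1000000 (CPM). With 1 library per condition no difference has a replicate check, so no test was made and every interval is a 95% interval of counting error only. The libraries shared between 28 and 50 cell barcodes in pairs. All 3 went against the label of sex, since the Y-linked gene Ddx3y stood at 110, 115 and 121 CPM in CON, UV and Rux, while Xist stood at 0.0921, 0.119 and 0.112 CPM. Defining markers were present in each class. FB markers summed to between 25739 and 33544 CPM in FB-like cells, and MYE markers to between 14155 and 16341 CPM in MYE-like cells against 19.7 to 40.4 CPM in FB-like cells.

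The 2 genes with the clearest differences, Nfkbia and Tnfaip3, are shown first by the sequence before their start, because NF-kB binding there is the textbook route of their feedback. The windows are the 250 bases before a RefSeq start on GRCm38, 5′ to 3′, and capitals mark matches to the NF-kB consensus motif, searched on both strands with no other motif. Nfkbia (ENSMUSG00000021025, IkB-alpha, the inhibitor that holds NF-kB in the cytoplasm) lies on chromosome 12 from 55489410 to 55492647, minus strand, and its window is chr12:55492648-55492897. Tnfaip3 (ENSMUSG00000019850, A20, a ubiquitin-editing enzyme that shuts down signalling from TNF receptor complexes) lies on chromosome 10 from 19000910 to 19015657, minus strand, and the window shown, 1 of 2 listed, is chr10:19015411-19015660.
Nfkbia: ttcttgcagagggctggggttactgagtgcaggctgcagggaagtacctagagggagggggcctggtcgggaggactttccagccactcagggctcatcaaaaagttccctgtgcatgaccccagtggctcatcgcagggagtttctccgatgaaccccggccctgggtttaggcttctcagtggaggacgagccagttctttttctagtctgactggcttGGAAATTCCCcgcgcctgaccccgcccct
Tnfaip3: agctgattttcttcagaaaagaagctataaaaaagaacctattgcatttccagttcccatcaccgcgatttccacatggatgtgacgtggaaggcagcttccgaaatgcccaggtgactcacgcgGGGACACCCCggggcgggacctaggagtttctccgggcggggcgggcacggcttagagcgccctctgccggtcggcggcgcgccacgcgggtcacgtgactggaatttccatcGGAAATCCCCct
The Nfkbia window held 1 match, beginning 29 bases before the start, and the Tnfaip3 window 2 matches, beginning 125 and 12 bases before it. The table held 10 windows for 7 of the members, with 3 for Nfkb2 and 2 for Tnfaip3, and did not list Nfkb1, Relb and Nfkbiz. Matches were found in 6 of these windows, 3 of Nfkb2 and 1 each of Rel, Nfkbia and Tnfaip3, against 3.90% of 32851 windows of all genes. A match is a run of letters and not a measured binding site, and the windows of Tnf, Rela and Birc3 had none, nor had the second Tnfaip3 window, chr10:19011964-19012213.

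In FB-like cells the 4 feedback genes were lower in UV than in CON, and 2 of them, Tnfaip3 and Nfkbia, were at least 1.5-fold higher in Rux than in UV. Tnfaip3 stood at 304 CPM in CON, 135 in UV and 373 in Rux, with intervals of 297 to 311, 131 to 139 and 368 to 378 CPM that do not overlap. The log2 ratio was −1.17 (−1.23 to −1.12) for UV over CON, 1.47 (1.42 to 1.51) for Rux over UV and 0.29 (0.25 to 0.33) for Rux over CON. In these sums UV was the low library and Rux the highest of the 3, though Rux over CON differed in sign between the fibroblast subclusters described below. Nfkbia stood at 1623, 1007 and 1712 CPM, with log2 ratios of −0.69 (−0.71 to −0.67), 0.76 (0.75 to 0.78) and 0.08 (0.06 to 0.09) in the same order. The contrasts share libraries, so a low value in UV enters both of the first 2.

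Nfkbiz (IkB-zeta, a nuclear IkB protein that helps induce a second wave of genes such as Il6 and Lcn2) had 716 CPM in CON, 410 in UV and 432 in Rux. Birc3 (cIAP2, a ubiquitin ligase recruited to TNF receptor complexes) had 357, 205 and 204 CPM. Their genes lie on the minus strand, Nfkbiz on chromosome 16 from 55811375 to 55838899 and Birc3 on chromosome 9 from 7848699 to 7873186. For both, UV and Rux lay together below CON. The log2 ratios of UV over CON were −0.80 (−0.84 to −0.77) and −0.80 (−0.84 to −0.75), and those of Rux over UV were 0.07 (0.05 to 0.10) and −0.01 (−0.05 to 0.03).

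The subunits differed less between libraries. On GRCm38, Nfkb1 lies on chromosome 3 from 135584655 to 135691547, Rel on chromosome 11 from 23736847 to 23770970 and Relb on chromosome 7 from 19606217 to 19629438, all on the minus strand, with Nfkb2 and Rela on the plus strand of chromosome 19, from 46304320 to 46312385 and from 5637483 to 5648130. The Nfkb1 locus overlaps Gm43430 on the same strand, so reads there may belong to either. Nfkb1 (p105, the precursor of p50) was the one subunit whose interval of UV over CON lay above 0, with 1281 CPM in CON, 1710 in UV and 1851 in Rux, and log2 ratios of 0.42 (0.40 to 0.44) and 0.11 (0.10 to 0.13) for UV over CON and Rux over UV. Relb, partner of p52 in the alternative pathway, followed the feedback genes instead, at 139, 86.0 and 95.8 CPM. Relb had a log2 ratio of −0.69 (−0.76 to −0.62) for UV over CON and 0.16 (0.09 to 0.22) for Rux over UV. Rel (c-Rel) had 154, 117 and 127 CPM, Rela (p65, the main activating subunit) 148, 133 and 128 CPM, and Nfkb2 (p100, the precursor of p52) 67.0, 67.5 and 58.2 CPM. None of these last 3 moved by more than 0.40 on the log2 scale in either contrast.

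Of the 9 members with a mean of at least 10 CPM in FB-like cells, 5 were at least 1.5-fold lower in UV than in CON and 0 higher, where 8.30% and 6.27% of all 8360 genes at that level were. In Rux over UV, 2 were at least 1.5-fold higher and 0 lower, where 3.35% and 5.15% of all 8156 genes were. The median of the 9 members was −0.69 for UV over CON against −0.11 for all genes, and 0.11 against 0.03 for Rux over UV. Ranked among all genes at that level, Tnfaip3 stood at percentile 1.30 in UV over CON and at percentile 99.9 in Rux over UV.

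**Figure D1:**
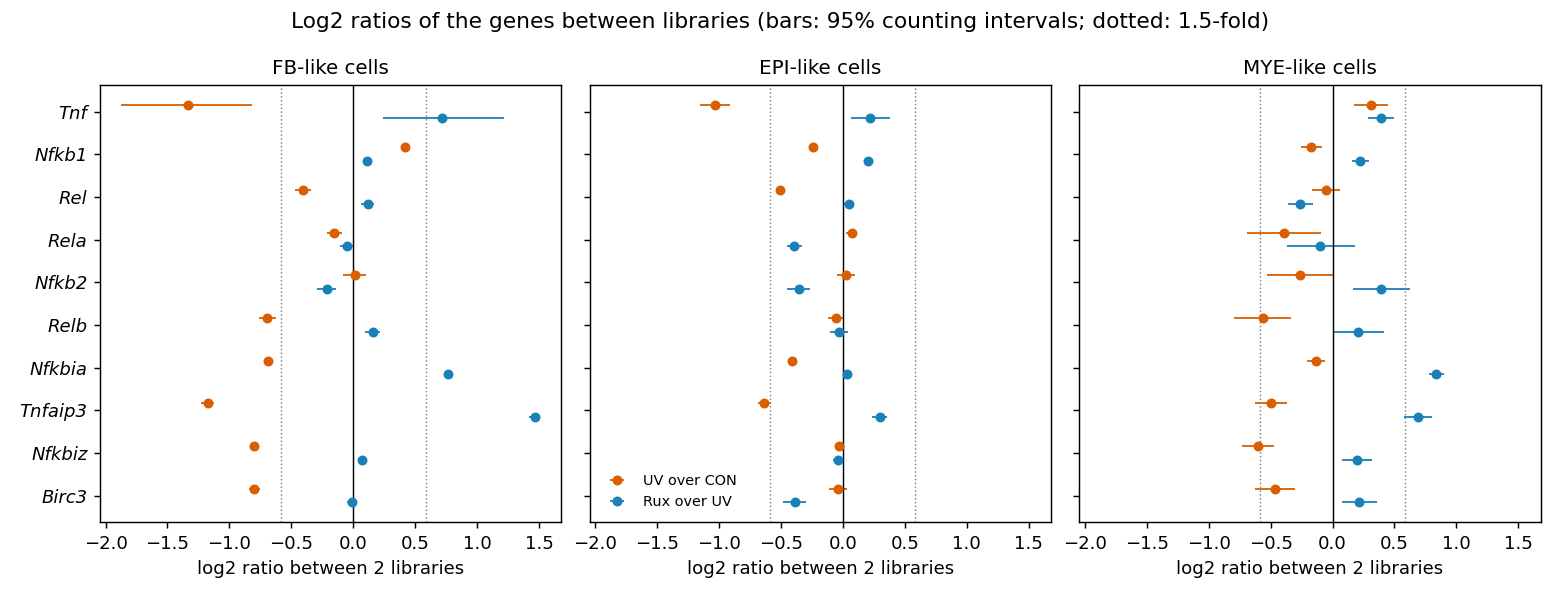
Log2 ratios between libraries (x axis) of the 10 genes (y axis) in FB-like, EPI-like and MYE-like cells, UV over CON in orange and Rux over UV in blue. Points are ratios of summed UMIs, bars their 95% counting intervals and dotted lines 1.5-fold. In FB-like cells Tnfaip3 runs from −1.17 to 1.47 between the contrasts, while Nfkbiz and Birc3 sit near 0 in Rux over UV.

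The level of immediate-early and dissociation-response genes moved with the first of these contrasts. The 24 genes of that list, such as Fos, Egr1 and Hspa1a, summed to 25545 CPM in CON, 15641 in UV and 16413 in Rux in FB-like cells. Of them, 13 were at least 1.5-fold lower in UV than in CON, with a median log2 ratio of −0.65, close to that of the members. In Rux over UV 3 were higher and 1 lower, with a median of 0.14. The part of this list in the lower feedback genes of UV was not tested. The highest of the 24 in Rux over UV were Nr4a1 at 1.02 and Egr3 at 1.01, and the lowest were Socs3 at −1.71 and Ier5 at −0.42.

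FB-like cells were split into 13 subclusters without the genes of the lists or those most like a member, and their makeup differed between libraries. Subcluster 0, led by Socs3, Gadd45g and Cebpd, held 43.0% of FB-like cells in CON, 8.46% in UV and 3.27% in Rux. Subcluster 10, led by Saa3, Hp and Lcn2, held 418 cells of Rux, 16 of UV and 1 of CON. Within the 10 subclusters that had at least 50 cells in every library, Tnfaip3 was lower in UV than in CON in 10, all with intervals below 0, at log2 ratios between −2.99 and −0.29. At resolution 0.8, 9 of 10 intervals lay below 0 and 1 above. From UV to Rux it was higher in 9 of 10, all 9 with intervals above 0, with a median log2 ratio of 1.37. The exception was subcluster 0, with 276 CPM in CON, 226 in UV and 194 in Rux.

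Nfkbia behaved alike, lower in UV than in CON in 9 of 10 subclusters (8 intervals below 0 and 1 above). It was higher in Rux than in UV in 9 (9 intervals above 0 and 1 below). Nfkbiz was lower in UV in 9 (9 intervals below 0), Birc3 in 9 (8 intervals) and Relb in 10 (9 intervals). Their median log2 ratios within subclusters were −0.46, −0.46 and −0.55, all smaller in size than over all FB-like cells, as was the −0.61 of Tnfaip3. The median of Nfkbia, −0.81, was larger in size than over all FB-like cells. From UV to Rux, Nfkbiz was higher in 8 of 10 (6 intervals above 0 and 1 below, median 0.19) and Relb in 8 (3 above and 1 below, median 0.15). Birc3 was higher in 5, with 3 intervals above 0 and 4 below, and a median of −0.05. Nfkb1 was higher in UV than in CON in 9 subclusters (9 intervals above 0 and 1 below), with a median log2 ratio of 0.25. When the subclusters were weighted by their shares in CON, Tnfaip3 had log2 ratios of −0.55 and 0.62 for UV over CON and Rux over UV, against −1.17 and 1.47 in the sums. Subcluster 0 carried 43.0% of that weight and held 164 cells in Rux. The immediate-early and dissociation list summed there to 34106 CPM in CON, 28452 in UV and 15407 in Rux, so its cells differed between libraries. The part of this in the weighted ratios was not tested. Every member but Tnf was lower in subcluster 0 in Rux than in UV, with Birc3 at 388 CPM in UV and 142 in Rux. How many of all genes were lower there was not counted, so this is not read as a trait of the members. With that weighting 1 member, Nfkbia at −0.73, stayed past 1.5-fold in UV over CON and 1, Tnfaip3, in Rux over UV. Birc3 then had −0.67 in Rux over UV, past 1.5-fold on the lower side, but −0.39 when the subclusters were made at resolution 0.8, where Tnfaip3 had −0.65 and 1.02 and Nfkbia −0.67 and 0.80. For Rux over CON, 6 intervals of Tnfaip3 lay above 0 and 4 below, and for Nfkbia 4 above and 6 below. The weighted log2 ratios of Rux over CON were 0.07 for Tnfaip3 and −0.40 for Nfkbia, and at resolution 0.8 they were 0.37 and 0.13.

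**Figure D2:**
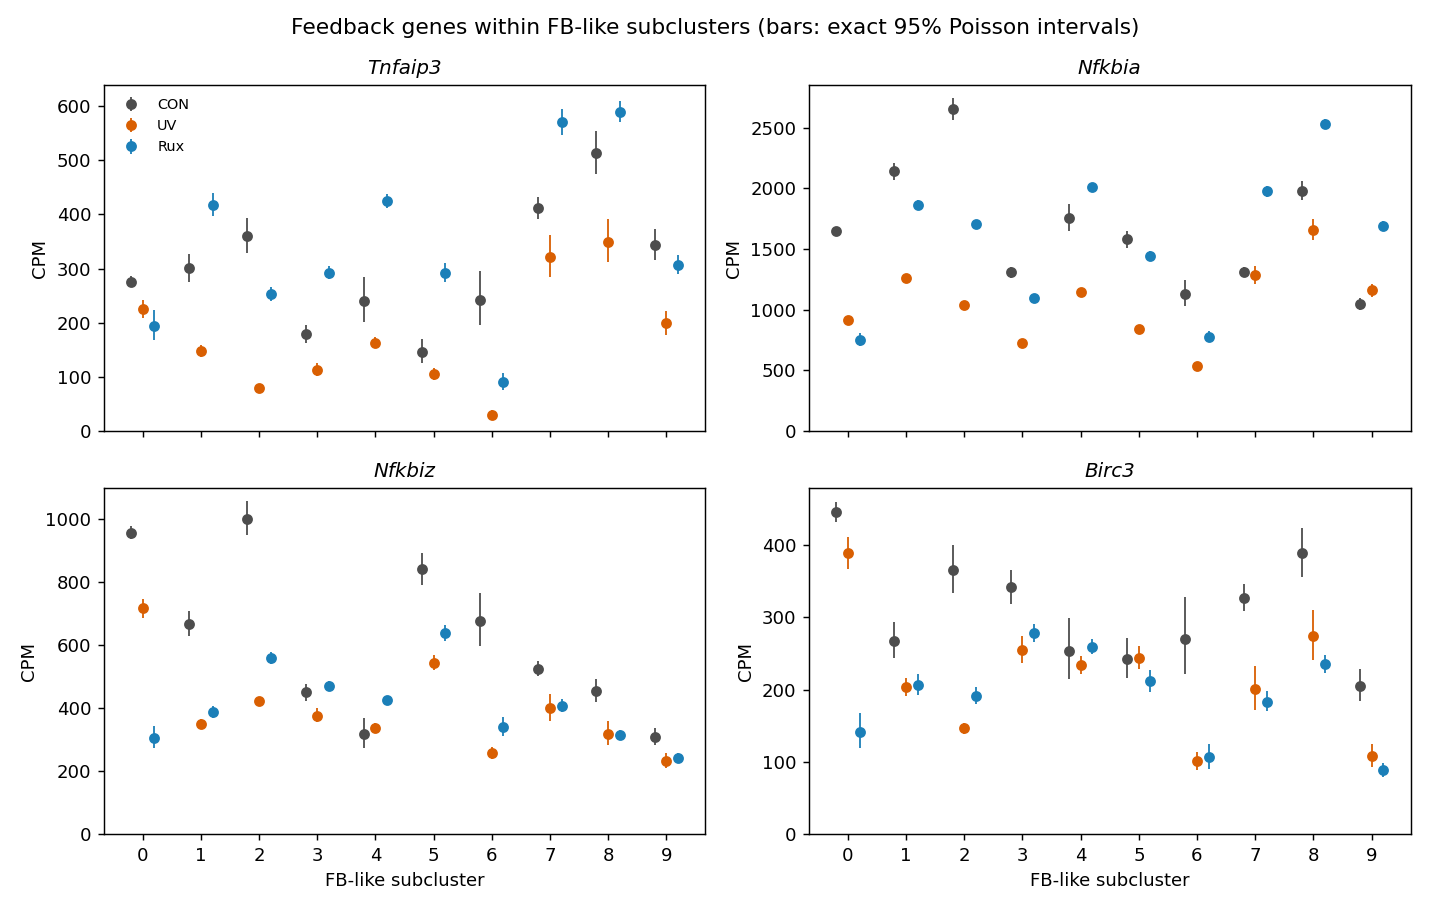
CPM (y axis, from 0) of Tnfaip3, Nfkbia, Nfkbiz and Birc3 in the 10 FB-like subclusters (x axis) with at least 50 cells in every library. Points are sums of UMIs per subcluster and library, in dark grey for CON, orange for UV and blue for Rux, and bars are exact 95% Poisson intervals. The orange points of Tnfaip3 lie under the grey ones in all 10 and under the blue ones in all but subcluster 0.

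The subclusters also differed in base level. In UV, 8 of the 10 members had their lowest level in subcluster 6, led by Rasgef1c, Gm12381 and Smpd3, against 1 in CON and 3 in Rux. How many of all genes were lowest in that subcluster was not counted, so this is not read as a trait of the members. Tnfaip3 ran in UV from 30.5 CPM in subcluster 6 to 350 in subcluster 8, led by Hpgd, Postn and Lepr. In CON the order was another, with a low of 146 CPM in subcluster 5 and a high of 513 in subcluster 8. Nfkb1 was highest in subcluster 3, led by Thbs4, Grm8 and Col8a1, in each library (2595, 2984 and 3208 CPM), and Nfkbia in UV ran from 534 CPM in subcluster 6 to 1659 in subcluster 8.

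Tnf (ENSMUSG00000024401, chromosome 17, 35199381 to 35202007, minus strand, GRCm38) encodes a cytokine that switches the pathway on. MYE-like cells had 393 CPM in CON (366 to 422), 487 in UV (457 to 518) and 639 in Rux (614 to 664). The 3 intervals do not overlap, and the log2 ratios were 0.31 (0.17 to 0.45) for UV over CON, 0.39 (0.29 to 0.50) for Rux over UV and 0.70 (0.58 to 0.82) for Rux over CON. Neutrophil-like cells, of which UV held only 22, had 234, 543 and 428 CPM. LYM-like cells had 87.8, 64.9 and 58.0 CPM, but their makeup differed, with a Trdc-led cluster of 91, 2 and 1 cells. In the 1 LYM-like cluster with at least 50 cells in every library, Tnf did not fall from CON. Its log2 ratio there was 0.55 for UV over CON, with an interval above 0, and 0.21 for Rux over CON. Mast-cell-like cells had 24.3, 70.4 and 79.5 CPM. Their CON value came from 62 cells with 0.0499% of the 4010 Tnf UMIs of CON, so no difference is read from it. FB-like cells held 3.38, 1.33 and 2.20 CPM from 80, 52 and 123 UMIs, at or near the level in SCH-like cells, where 1, 2 and 0 UMIs gave 2.54 and 3.50 CPM and an upper limit of 7.89 CPM. No difference of Tnf in FB-like cells is read from these counts.

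The 2 clusters of MYE-like cells went different ways. Cluster 12, led by Igkc, Lyz2 and Ighg2b (immunoglobulin transcripts beside a macrophage gene), had 491 CPM of Tnf in CON, 643 in UV and 756 in Rux. Cluster 38, led by the MHC class II genes H2-Eb1, Cd74 and H2-Ab1 and holding 54, 45 and 59 cells, had 121, 43.1 and 105 CPM of Tnf. UV over CON was thus 0.39 (0.25 to 0.53) in the first and −1.46 (−2.24 to −0.77) in the second, and Rux over UV was above 0 in both. After thinning each cell to 2000 UMIs, 41.7% of MYE-like cells in CON, 38.8% in UV and 44.7% in Rux had a Tnf UMI, with Clopper-Pearson intervals of 35.6 to 48.1%, 32.4 to 45.4% and 39.9 to 49.6% that overlap. Without thinning the shares were 63.4%, 55.8% and 67.6%, and in SCH-like cells they were 0.694%, 1.09% and 0%. Thinned SCH-like cells gave 1.02%, 1.54% and 0%. Median depths were 6551.5, 7518.5 and 8924 UMIs per cell in MYE-like cells and 2499, 2647 and 3326.5 in SCH-like cells.

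EPI-like cells had a low level of Tnf per cell but were many and deep, at a median of 17435 to 21366 UMIs. Their level was 30.02 CPM in CON (28.8 to 31.2), 14.7 in UV (13.7 to 15.8) and 17.2 in Rux (15.9 to 18.5), with log2 ratios of −1.03 (−1.15 to −0.91) and 0.22 (0.07 to 0.38). CON stood apart, and UV and Rux were near each other. Of the 6 EPI-like clusters with at least 50 cells in every library, Tnf was lower in UV than in CON in 6, with 4 intervals below 0. Tnf in cluster 7, led by Slc16a7, Itga2 and Gm16599, had 49.8 CPM in CON and 29.0 in UV, and in cluster 5, with Hist1h1b and Anln of dividing cells among its leading genes, 41.9 and 17.5. Clusters 19 and 31, with the basal keratins Krt14 and Krt5 and the suprabasal keratins Krt1 and Krt10, numbered 462 and 258 cells in CON but 17 and 7 in UV, and had 10.4 and 4.95 CPM of Tnf in CON, below the class. Thinned to 2000 UMIs, 5.07%, 2.20% and 3.33% of EPI-like cells had a Tnf UMI, and unthinned 29.1%, 18.0% and 21.0%. Melanocyte-like cells, with a median of 21941 UMIs in CON, had 12.9, 12.7 and 19.5 CPM of Tnf, and in UV and Rux their intervals (7.26 to 20.6 and 11.2 to 31.7) overlapped those of EPI-like cells.

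**Figure D3:**
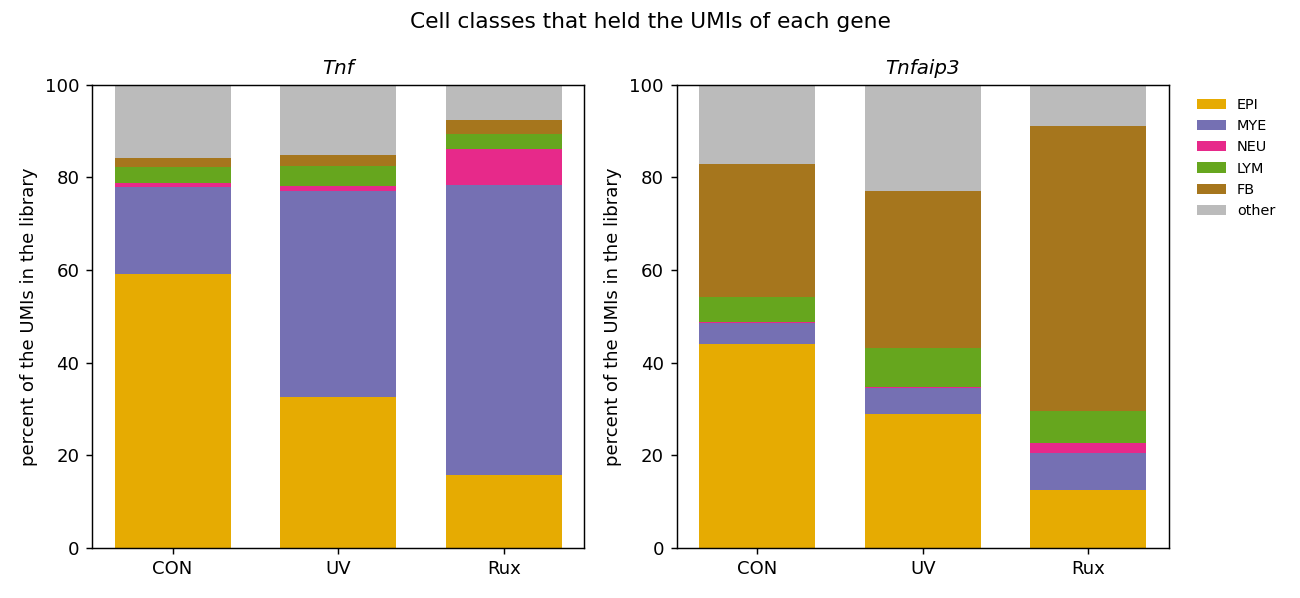
Share of all UMIs of Tnf (left) and Tnfaip3 (right) in a library (y axis, percent) held by each cell class, for CON, UV and Rux (x axis). EPI-like cells held 59.2% of Tnf UMIs in CON and 15.8% in Rux, and MYE-like cells 18.8% and 62.6%.

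In the pool of all cells, Tnf had 28.4 CPM in CON, 19.1 in UV and 35.6 in Rux, which follows the cells captured as well as the level per cell. EPI-like cells held 59.2%, 32.5% and 15.8% of the Tnf UMIs of CON, UV and Rux, and MYE-like cells 18.8%, 44.5% and 62.6%. EPI-like cells were 31.6%, 17.7% and 15.7% of all cells in the same order. MYE-like cells were 2.56% (2.27 to 2.88%), 2.35% (2.06 to 2.66%) and 4.81%. The intervals of CON and UV overlap. A share of Tnf UMIs also follows the UMIs of the other classes, and the library totals of Tnf were 4010 in CON, 2238 in UV and 4120 in Rux. The part of each in the higher MYE-like share of UV was not tested. For Tnfaip3 FB-like cells held 28.7%, 34.0% and 61.4% of the UMIs.

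In MYE-like cells, 2 of the 4 feedback genes, Nfkbia and Tnfaip3, were at least 1.5-fold higher in Rux than in UV. Nfkbia stood at 1658 CPM in CON, 1511 in UV and 2705 in Rux, a log2 ratio of 0.84 (0.78 to 0.90) for Rux over UV, and Tnfaip3 at 593, 421 and 680 CPM, a log2 ratio of 0.69 (0.58 to 0.80). Rux was the highest of the 3 libraries for both. Nfkbiz and Birc3 were highest in CON, with log2 ratios of Rux over UV of 0.20 (0.08 to 0.32) and 0.22 (0.07 to 0.36). Of the 10 members, 2 were at least 1.5-fold higher in Rux than in UV (7.70% of all genes), and 1, Nfkbiz at −0.60 (−0.73 to −0.47), was lower in UV than in CON (12.8% of all genes). In cluster 12 the log2 ratios of Rux over UV were 0.84 for Nfkbia and 0.68 for Tnfaip3, and in cluster 38 they were 0.47 and 0.16 (−0.14 to 0.48). Neutrophil markers summed to 75.1 CPM in MYE-like cells of CON, 47.9 of UV and 108 of Rux, LEC markers to 129, 157 and 450, and the immediate-early and dissociation list to 9732, 7365 and 7490. Their part in these values was not tested.

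In EPI-like cells 2 of 10 members were at least 1.5-fold lower in UV than in CON, against 3.72% of all genes. These were Tnf and Tnfaip3, the latter at 140 CPM in CON, 90.4 in UV and 111 in Rux with a log2 ratio of −0.63 (−0.68 to −0.58). Rel (−0.51) and Nfkbia (−0.41) came next. In Rux over UV 0 of 10 passed in either direction, where 5.32% of all genes did. Over the 6 clusters, Tnfaip3 was lower in UV than in CON in 5 (4 intervals below 0) and Nfkbia in 5 (5 intervals). The exception was cluster 11, with the hair follicle gene Lgr5 among its leading genes, where Nfkbia had 788 CPM in CON and 1516 in UV and Tnfaip3 82.6 and 128 CPM.

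The remaining classes gave few values past 1.5-fold. In LEC-like cells 1 of 9 members, Birc3 (−0.62), was lower in UV than in CON (4.83% of all genes) and 1, Nfkb2 (−0.75), lower in Rux than in UV (5.03%). In PCY-like cells Tnfaip3 (−0.75) and Birc3 (−0.64) were lower in UV than in CON, 2 of 9 (9.34%), and Nfkb2 (−0.65) was lower in Rux than in UV (11.3%). In SCH-like cells Nfkbia, at 959, 1044 and 1920 CPM, was the 1 of 9 at least 1.5-fold higher in Rux than in UV, at 0.88 (0.72 to 1.04), where 14.9% of all genes were. The immediate-early and dissociation list summed there to 19451, 19900 and 25430 CPM, in PCY-like cells to 25684, 18657 and 20309 and in LEC-like cells to 22902, 18083 and 19816, and its part in these values was not tested. VEC-like cells had 0 of 10 in either direction in UV over CON and in Rux over UV (13.4% and 13.3% of all genes), and LYM-like cells likewise 0 of 10 (23.8% and 10.9%). A cluster of LYM-like cells led by Trdc held 91 cells in CON, 2 in UV and 1 in Rux. Tnfaip3 had a log2 ratio of Rux over UV above 0 in all 8 classes, from 0.22 in LEC-like to 1.47 in FB-like cells. The interval of SCH-like cells, −0.34 to 1.09, spanned 0, and that of LEC-like cells began at 0.03. All 8 ratios rest on the same 2 libraries. How many of all genes lay above 0 in all 8 classes was not counted, so this is not read as a trait of Tnfaip3.

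Among the 8 classes, each gene had its own order of levels, and the highest and lowest below are of these 8. Nfkbia was highest in LEC-like cells (4626, 3575 and 3566 CPM in CON, UV and Rux) and VEC-like cells (3753, 3260 and 4156) and lowest in LYM-like cells (544, 514 and 624). Tnfaip3 was highest in LYM-like cells (851, 866 and 1056) and lowest in SCH-like cells (71.2, 66.6 and 86.8), whose intervals overlap between the libraries. Nfkbiz was highest in PCY-like cells (1045, 741 and 711), and Rel in MYE-like cells (642, 619 and 516). Birc3 was highest in MYE-like cells (385, 279 and 324) and lowest in EPI-like cells (52.6, 51.2 and 39.0). Rela lay between 73.3 and 171 CPM over the 8 classes and 3 libraries. Of the smaller classes, mast-cell-like cells, with 62 cells in CON, had Nfkbiz at 1916, 1693 and 2037 CPM, above PCY-like cells, and Tnfaip3 at 1322, 627 and 874 CPM. Neutrophil-like cells had Birc3 at 468, 475 and 718 CPM, above MYE-like cells, and melanocyte-like cells had Tnfaip3 at 22.7, 19.8 and 37.9 CPM, below SCH-like cells. In every library neutrophil-like cells, 22 of them in UV, also had Nfkbiz above PCY-like cells, and melanocyte-like cells had Birc3 below EPI-like cells. Rel in Rux was higher in neutrophil-like and mast-cell-like cells than in MYE-like cells. The smaller classes are not listed in full, so the order holds for the 8 classes only. Levels are compared within a gene only, since reads from introns may count and genes differ in length.

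**Figure D4:**
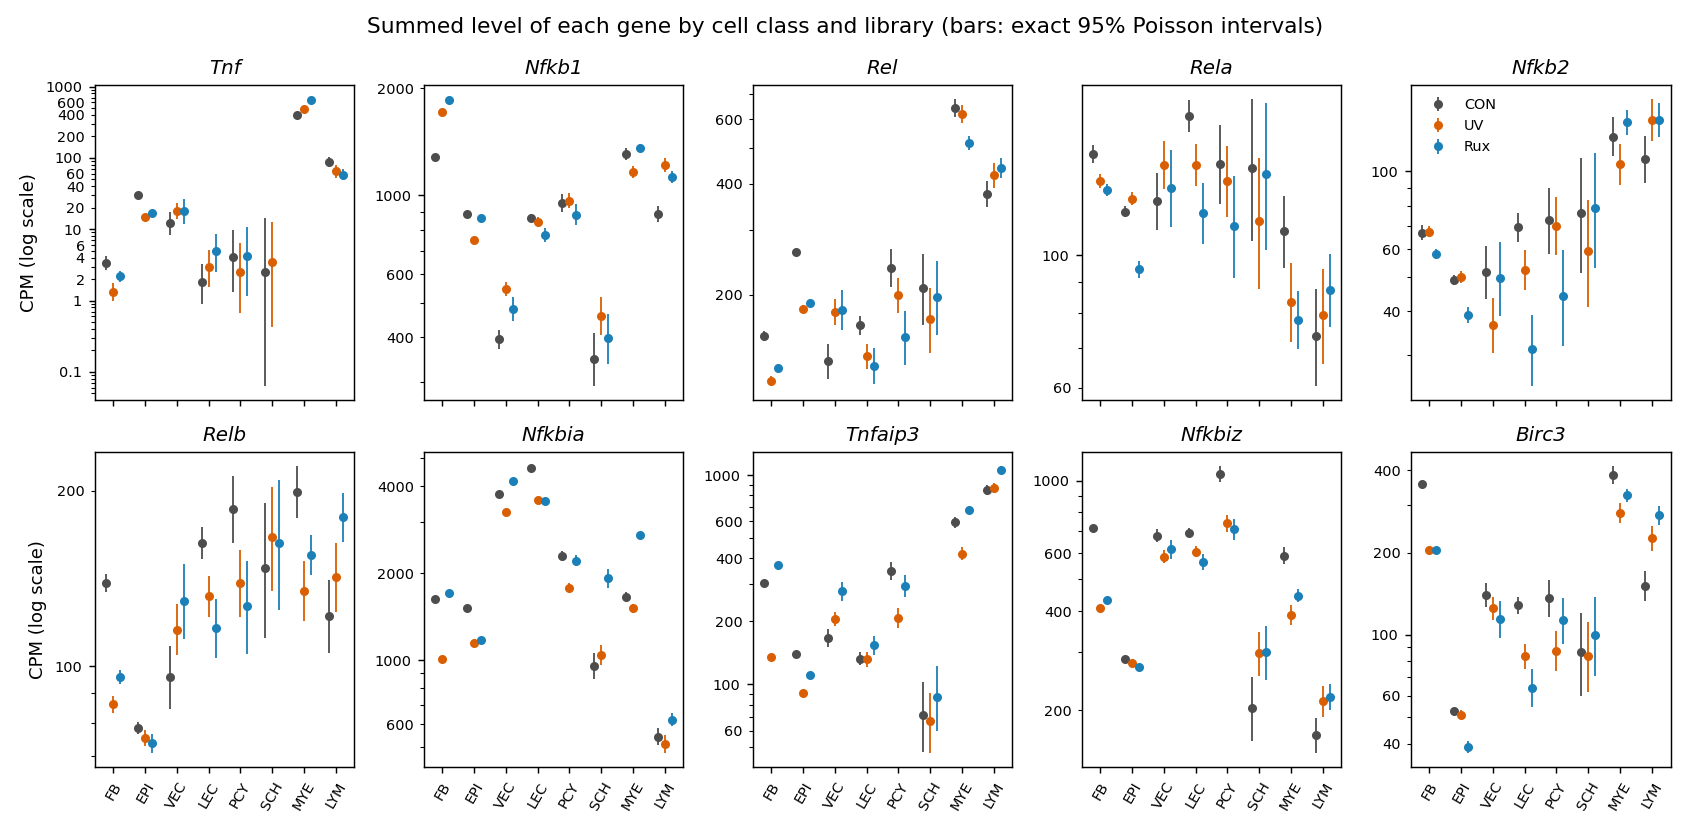
Summed level of each gene in CPM (y axis, log scale, different for each panel) in the 8 classes (x axis), with CON in dark grey, UV in orange and Rux in blue and exact 95% Poisson intervals as bars. Tnf in SCH-like cells of Rux, with 0 UMIs, is not drawn. Among these classes Tnf is highest in MYE-like cells, Nfkbia in LEC-like and VEC-like cells and Tnfaip3 in LYM-like cells.

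Over the 24 points of class and library, the genes with levels most like a member were found by Pearson r on the log2 scale among the 3958 genes whose mean reached 50 CPM. For Tnf these were Nsf (0.95), Arpc4 (0.92) and Cmpk1 (0.91), for Rel they were Cd83 (0.93), Coro1a (0.92) and Fcer1g (0.91), and for Nfkbiz Tifa (0.90), Thbd (0.90) and Trak1 (0.89). For Nfkbia they were Mef2a (0.89), Ralb (0.88) and Ifitm3 (0.88), for Tnfaip3 Dhx40 (0.89), Pcgf5 (0.88) and Hilpda (0.87), and for Birc3 Samhd1 (0.91), Cyba (0.89) and Lsp1 (0.88). The other subunits had Ell2 (0.86, Nfkb1), Vamp4 (0.89, Nfkb2), Myc (0.88, Rela) and Ppp1r10 (0.76, Relb) at the top. The points share libraries and classes, so r is a description of the pattern over cell types.

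The other genes of the pathway, from lists of ligands and receptors, adaptors and kinases, inhibitors and targets, differed less evenly in FB-like cells. Their counts stand against the shares of all genes given above for these cells, 6.27% higher and 8.30% lower in UV over CON and 3.35% higher and 5.15% lower in Rux over UV. Among receptors, 2 of 8 were higher in UV than in CON and 0 lower. Tnfrsf1b, the inducible TNF receptor, had 26.9 CPM in CON, 65.4 in UV and 71.6 in Rux, a log2 ratio of 1.28 (1.16 to 1.41), and Il1r1, the IL-1 receptor, 451, 677 and 572 CPM, a log2 ratio of 0.59 (0.55 to 0.62). The lowest were Ltbr (−0.56) and Tnfrsf1a (−0.47), the TNF receptor found on most cells. From UV to Rux 0 of 8 passed in either direction, from Tlr4 (−0.36) and Il1r1 (−0.24) to Tnfrsf1b (0.13) and Tnfrsf12a (0.16).

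Of 17 adaptors and kinases, 4 were lower in UV than in CON and 0 higher: Ripk1, Birc2, Map3k14 and Rnf31. Map3k14, the NIK kinase of the alternative pathway, had −0.75 (−0.87 to −0.63), and Rnf31, part of the linear ubiquitin ligase, −0.85. At the upper end stood Traf3 (0.48) and Ikbkb (0.45). From UV to Rux 2 of 16 were lower and 0 higher, namely Ripk1, at 144 CPM in UV and 67.1 in Rux (−1.10), and Myd88 (−0.64), with Traf3 (0.35) and Traf6 (0.33) at the upper end. Ripk1 is the kinase at the fork of TNF survival and death signalling, and Myd88 the adaptor of IL-1 and Toll-like receptors.

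Of 13 other inhibitors, 2 were lower in UV than in CON and 0 higher. Zfp36 (tristetraprolin, which destabilizes cytokine mRNAs) had 2667 CPM in CON and 969 in UV (−1.46 on the log2 scale), and Nfkbie (IkB-epsilon) had −0.95. Otud7b (0.43) and Irak3 (0.31) stood at the upper end. Comparing Rux with UV, 1 of 13 was higher and 0 lower, Nfkbie at 0.80 (0.63 to 0.96), 11.2 CPM in UV and 19.5 in Rux. The next was Otud7b (0.46), and the lowest were Tnip2 (−0.46) and Otulin (−0.44).

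As a list, the 35 target genes did not follow the feedback genes in UV over CON. In UV over CON 3 of 22 were higher (Cxcl2, Csf1, Lcn2) and 3 lower (Bcl2l1, Ier3, Gadd45b), with a median log2 ratio of 0.08. The ends were Lcn2 (1.98, from 6.12 to 24.2 CPM) and Csf1 (1.34) above, and Gadd45b (−1.73) and Ier3 (−0.92) below. Comparing Rux with UV, 7 of 23 were higher, among them Csf2, Lif, Saa3 and Lcn2, and 2 lower (Il6, Sod2), with a median of 0.17. Saa3, an acute-phase protein, had 84.1 CPM in UV and 756 in Rux (3.17), and Csf2, the growth factor GM-CSF, 12.5 and 39.5 CPM (1.66). Il6 went the other way, with 1130 CPM in UV and 470 in Rux (−1.27), and so did Sod2, a mitochondrial antioxidant enzyme (−0.76). Saa3 and Lcn2 are among the leading genes of subcluster 10, whose cells came mostly from Rux. Neutrophil markers summed to 4.31, 3.87 and 24.3 CPM in FB-like cells, and their part in these values was not tested.

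In MYE-like cells 13 of 29 targets were higher and 1 lower in Rux than in UV, where 7.70% and 10.9% of all genes were, with a median log2 ratio of 0.36 against 0.02 for all genes. Among the higher were the cytokine genes Il1a and Il1b, the neutrophil chemokines Cxcl1 and Cxcl2, and Ptgs2 and Sod2. In UV over CON 11 of 28 were lower and 2 higher, where 12.8% and 5.96% of all genes were, with a median of −0.31 against −0.11. In EPI-like cells 5 of 20 targets were higher and 4 lower in UV than in CON, where 4.02% and 3.72% of all genes were. From UV to Rux, 3 of 21 were higher and 3 lower, where 2.70% and 2.62% of all genes were.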

How the data were processed

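The authors deposited a matrix of unnormalized UMI counts for each library, made with Cell Ranger against mm10 (GRCm38). The labels name version 6.1.2, and the matrix headers 7.0.0, a release that counts intronic reads by default. Which setting was used is not given in the sources used here. Totals were 165337289, 133972374 and 131570327 UMIs in CON, UV and Rux.

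Barcodes under 200 genes or over 10% mitochondrial UMIs were dropped, and the 1269, 1128 and 923 cells with the highest Scrublet scores removed. Seurat clustered 2000 variable genes on 30 components at resolution 1.5, without batch correction. FB-like cells were reclustered at resolution 0.5 on 20 components. UMIs were summed per class, and ratios used 0.5 UMI added to each sum with an exact conditional binomial interval. Sums have exact Poisson intervals and shares Clopper-Pearson intervals, at 95%. A value was counted as past 1.5-fold where the mean CPM of the 2 libraries was 10 or more. The number of samples per group is 1, so no test was made. Ratios and intervals were checked on simulated counts that held counting error only, so the check does not cover variation between cells or mice.

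The members and lists were chosen with earlier results of these data known. Named were all members, the 2 highest and 2 lowest genes of each list in FB-like cells, the 3 genes most like a member, the extreme subclusters, and markers. Others, such as the genes past 1.5-fold in a list, were chosen after their values were seen. Alternatives were a strict cell filter (at least 500 genes, at most 5% mitochondrial UMIs), no doublet removal, resolution 0.8, scaling by the median of ratios, the same weight for each cell, other totals, subclusters weighted as in CON, other minima and thinning to 1000 UMIs. Added after seeing the data were cells of at least 2000 UMIs, an unnamed low-UMI cluster joined to FB-like cells, and subclusters at resolution 0.8. Clustering ran in R 4.3.3 with Seurat 5.3.0, doublet scoring in scanpy 1.11.5, and all else in Python 3.11.15 (pandas 2.3.3, scipy 1.17.1, numpy 2.4.6).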

Additional observations from a re-analysis of the deposited data

Results flagged for a closer look

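For 6 genes a ratio past 1.5-fold in 1 class stood against a ratio with its interval on the other side of 0 in another. With 1 library per condition, none of these differences between classes was tested. How many of all genes meet the same rule was not counted, so the number is not read as a trait of the members. In UV over CON, Tnf had a log2 ratio of 0.31 in MYE-like and −1.03 in EPI-like cells, a difference of 1.34. Tnfaip3 had 0.30 in VEC-like and −1.17 in FB-like cells, a difference of 1.47. Relb had 0.27 in VEC-like and −0.69 in FB-like cells, a difference of 0.96. Nfkbiz had 0.55 in SCH-like and −0.80 in FB-like cells, a difference of 1.35, and Birc3 0.57 in LYM-like and −0.80 in FB-like cells, a difference of 1.37. LYM-like cells of CON included a Trdc-led cluster of 91 cells that held 2 cells in UV. In Rux over UV, Nfkb2 had 0.45 in VEC-like and −0.75 in LEC-like cells, a difference of 1.20.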

How the results depend on the processing

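The 18 member ratios past 1.5-fold in UV over CON and Rux over UV kept their sign under all 147 alternatives run. Of these alternatives, 110 lay inside the counting interval of the reported value. Among all 160 member ratios, not chosen by size, 1109 of 1180 alternatives kept the sign and 1020 lay inside the interval. The largest shift among the 160 was 1.59 on the log2 scale. Rux over CON was not put through these alternatives, apart from the weighting by subcluster given above. For the 18 ratios the largest shift was 0.27 on the log2 scale apart from weighting by subcluster, and 0.85 with it. A shift of 0.27 is too small to turn the sign of a ratio past 1.5-fold. Outside the weighting, the kept sign of the 18 thus follows from their choice by size and is not read as a check. In FB-like cells, 5 members lower in UV than in CON became 1 at 2-fold, 1 with subclusters weighted as in CON and 2 with subclusters of resolution 0.8. The 2 members higher in Rux than in UV became 1 at 2-fold and 1 with subclusters weighted as in CON, where 1 member in place of 0 was lower. With subclusters of resolution 0.8 these counts stayed at 2 and 0. The median log2 ratio of the targets in UV over CON, 0.08 as reported, was 0.025 without doublet removal, 0.18 with median-of-ratios scaling and −0.041 with equal weight per cell, so its sign is not settled. In Rux over UV it was 0.17 as reported, 0.22 with the strict filter, 0.23 without doublet removal, 0.13 with median-of-ratios scaling, 0.22 with equal weight per cell and 0.25 with at least 10 UMIs in place of 10 CPM. The cause was not tested. Weighting set the shares of the subclusters alike but not the cells within a subcluster, and it also counted each subcluster by its cells in place of its UMIs. Subclusters of resolution 0.8 gave Tnfaip3 intervals above 0 in Rux over UV in 10 of 10. Shares of cells moved outside their intervals in 23 of 24 values at other depths, as fewer or more UMIs were drawn. Median-of-ratios scaling moved the median of all genes in FB-like cells from −0.11 to −0.01 in UV over CON. No paired analysis was possible because each condition had 1 library. Depth limits Tnf in FB-like, VEC-like, LEC-like, PCY-like, SCH-like and mast-cell-like cells, where a library held 0 to 123 UMIs of it.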
